A study of Ovis aries with 56 samples.

Results

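ISG15, MX1, MX2, RTP4 and IRF1 are 5 genes whose transcription interferon raises. They were followed across the amygdala arrays of 50-week-old sheep. The genes were chosen by name. Every non-control probe whose gene name, best sequence match or description in the deposited tables names one of them was taken, which gave 6 of 15008 distinct probes and 5 of the 835 genes that could be named on the array. All 6 probes could be tested. RTP4 had 2 probes, and the other genes had 1 each.

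Interferons are signalling proteins that cells release when they sense foreign nucleic acid or other danger. Type I interferon binds a receptor made of IFNAR1 and IFNAR2, and the kinases bound to that receptor activate STAT proteins, which enter the nucleus with IRF9 and switch on genes that carry an interferon response element. In brain, microglia, astrocytes, endothelial cells and neurons can all answer interferon, and a set of such genes often moves together from animal to animal.

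The study treated sheep with an agonist of the gonadotropin-releasing hormone receptor (GnRHa), whose continued presence lowers the release of gonadotropins. It asked how treatment around puberty, sex and brain side bear on gene expression in the amygdala, a forebrain region of emotional and social behaviour. All animals were Scottish Mule Texel crosses of 50 weeks. In female GnRHa animals a goserelin acetate implant of 3.6 mg was placed every 4 weeks from the age of 28 weeks, and female controls were their untreated twins. In male GnRHa animals the same implant was given at the same interval from the age of 8 weeks, and male controls were their untreated twins. Each of the 8 groups (sex, treatment, side) held 7 arrays. The sexes were kept apart throughout and began treatment at different ages, so in the comparisons between them sex, housing and, with GnRHa, the length of treatment cannot be told apart. Each array set RNA of 1 side of 1 animal against a pool of amygdala RNA of both sexes, sides and treatments, so every value below is a log2 ratio to that pool, and a difference is one between such ratios.

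Of the 56 arrays, 15 were left out because their added spike-in RNAs had an absolute slope of at most 0.208 against the other arrays, where the used arrays had 1.13 to 1.26. In 3 used arrays the spike-ins ran the opposite way, and their values were multiplied by -1. These were female control right replicate 7 and, from 1 animal, male GnRHa left and right replicate 6. The 41 used arrays came from 25 animals, with 10 arrays of 5 female GnRHa animals, 10 of 7 female controls, 12 of 7 male GnRHa animals and 9 of 6 male controls. Between 2.49 and 19.6% of probes had no value on a used array, and the number of arrays limits the precision. The turned arrays were taken to carry the opposite dye to their label, which for female control right replicate 7 was Cy3. On that reading all used female right arrays carried the sample in Cy5 and all used female left arrays in Cy3. In females side and dye thus cannot be told apart. Of the marker lists, astrocyte genes were well represented, but 0 of 15 neuron and 0 of 11 oligodendrocyte markers were on the array by name, and ratios to an amygdala pool cannot show the tissue of origin.

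ISG15 encodes a ubiquitin-like protein that is joined to other proteins in cells under interferon. Its probe carries the older name ISG17 in the files. The authors' mean log2 brightness was 6.51 for ISG15, 6.90 for MX1, 6.35 for MX2, 6.44 and 6.29 for the RTP4 probes and 5.48 for IRF1. Probes bind with different strength, so levels are not compared between genes. In the RefSeq table of assembly ARS-UI_Ramb_v3.0, MX1 and MX2 are neighbours with 0 genes between them. They are also alike in sequence, and sharing of signal between their probes was not tested.

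ISG15 was high in treated females and low in males. On the female GnRHa right arrays it stood at -0.36, 3.02, 1.53, 1.50 and -0.44, and on the left arrays at -0.26, 0.76, 1.99, 1.58 and 0.25 (replicates 3 to 7 on each side). In female controls the right arrays held 0.23, -0.91, -1.21, 0.12 and 0.36, and the left arrays held -0.64, 1.05, -0.87, -0.98 and 0.85. Replicates 3 and 7 of the treated females lay within the control range on both sides, and replicates 5 and 6 lay above it on both sides. In the 6 male GnRHa right arrays ISG15 ran between -1.51 and 0.37 with a median of -0.83, and in the 6 left arrays between -1.34 and 0.13 with a median of -0.77. In male controls it was at -1.91, -0.05, -1.66 and -2.04 on the right, and at -1.18, -1.79, -1.71, -1.06 and -0.64 on the left. All 9 male control arrays lay below the pool, and 7 of 10 female GnRHa arrays lay above it.

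Ordered by their means, the ISG15 levels ran from female GnRHa right (1.05 ± 1.46) and left (0.86 ± 0.93) through female control left (-0.12 ± 0.98) and right (-0.28 ± 0.72) and male GnRHa left (-0.72 ± 0.48) and right (-0.80 ± 0.66) to male control left (-1.28 ± 0.48) and right (-1.42 ± 0.92). The 2 ends of this order were 2.47 apart. None of the 7 gaps between neighbouring groups was larger than the larger SD of the pair, so the order of neighbours is not settled. The same held for the 7 gaps of MX1, MX2, RTP4 and IRF1.

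RTP4 encodes a Golgi-associated chaperone of some G-protein-coupled receptors and is also a dampener of interferon signalling in mice. It too had its highest mean in treated females and its lowest in male controls. Its brighter probe stood at -0.46, 1.67, 1.10, 1.47 and 0.41 on the female GnRHa right arrays and at -0.79, 0.14, 1.07, 0.19 and 0.07 on the left arrays. In female controls it stood at -0.38, -0.77, -0.88, 0.90 and 0.18 on the right and at -0.76, 1.28, -0.32, -0.93 and 0.45 on the left. The treated females' right arrays other than replicate 3 were above the pool, and the control arrays were spread to both sides of it. In male GnRHa animals RTP4 ran between -1.05 and -0.45 on the right (median -0.87, 6 arrays) and between -0.72 and 0.11 on the left (median -0.47, 6 arrays). In male controls it ran between -1.28 and -0.03 over 9 arrays, with a median of -0.82. The dimmer probe differed from the brighter by a median of 0.13 and at most by 0.64 over 41 arrays.

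MX1 and MX2 encode dynamin-like GTPases that block the replication of many viruses. MX1 ran between -0.52 and 2.00 in female GnRHa arrays (median 0.03), between -1.14 and 0.71 in female controls (median -0.49), between -0.71 and 0.55 in male GnRHa arrays (median -0.20) and between -1.24 and 0.87 in male controls (median -0.41). All 4 ranges overlapped, and 3 of 10 female GnRHa arrays lay above the highest female control. MX2 ran between -2.21 and 2.43 in female GnRHa arrays (median -0.50), between -2.22 and -0.03 in female controls (median -0.46), between -2.33 and 0.47 in male GnRHa arrays (median -0.42) and between -1.01 and 0.33 in male controls (median -0.47). The 4 MX2 medians lay close together, and the widest spread was in treated females.

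IRF1 is a transcription factor that interferon gamma in particular induces and that itself switches on further interferon genes. It ran between -0.76 and 1.71 in female GnRHa arrays (median 0.58), between -1.96 and 0.71 in female controls (median -0.22), between -2.98 and 0.64 in male GnRHa arrays (median -0.25) and between -2.48 and 1.65 in male controls (median -0.52). It was measured on 40 of 41 arrays and was missing in male control right replicate 3. The lowest male GnRHa value, on right replicate 2, stood far below the next value of that group, -0.54.

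**Figure D1:**
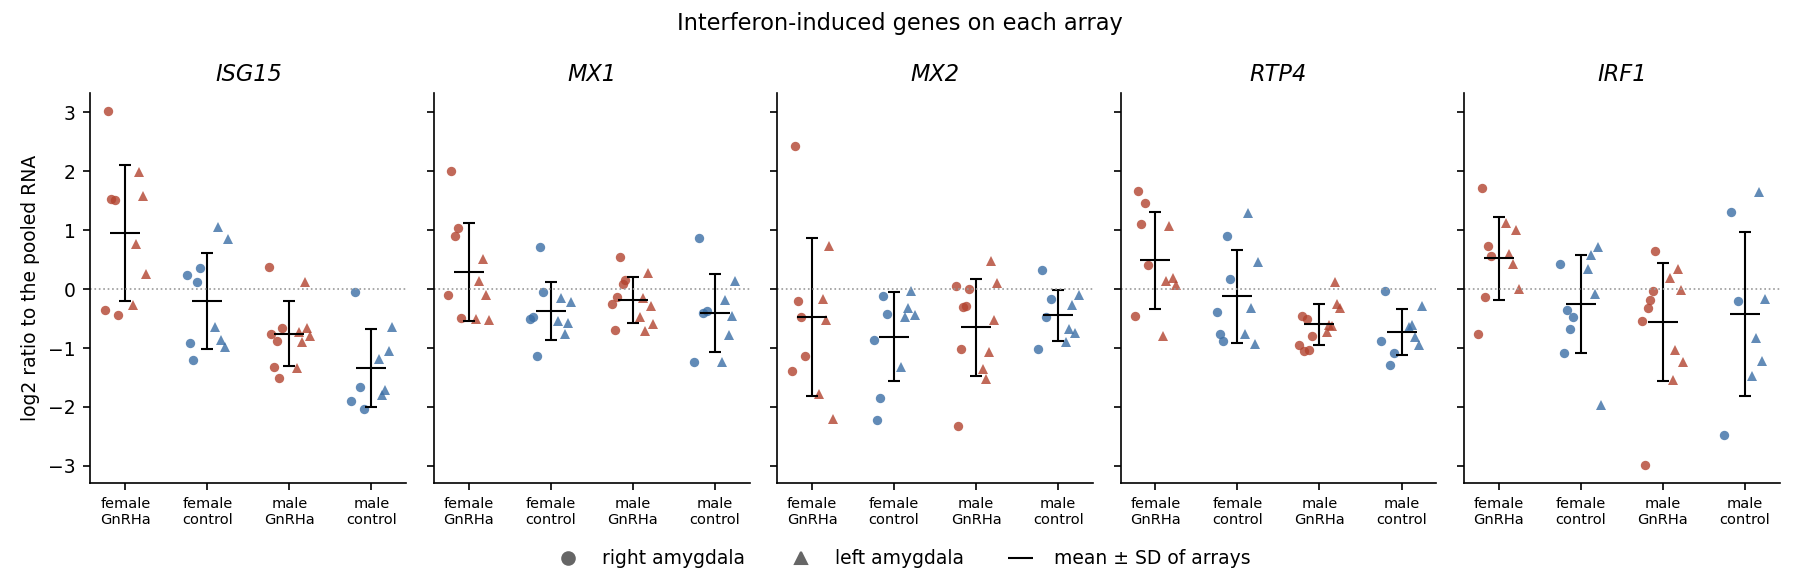
Log2 ratio to the pooled RNA of ISG15, MX1, MX2, RTP4 (brighter probe) and IRF1 on each used array, with circles for the right and triangles for the left amygdala and with the mean ± SD of each sex and treatment as a bar. ISG15 and RTP4 are highest in female GnRHa arrays and low in both male groups, whereas the MX2 groups lie over each other.

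The first comparison asked which members differ between the sexes under treatment. ISG15 was higher in female than in male GnRHa amygdala. The means were 0.96 ± 1.16 (SD, n = 10 arrays of 5 animals) and -0.76 ± 0.55 (n = 12 arrays of 7 animals). The fitted log2 difference was 1.70 ± 0.38 (SE), and limma's adjusted p was 0.0468 over all probes. Of the 10 female arrays, 6 exceeded the highest male array and 10 exceeded the male average. RTP4 stood at 0.49 ± 0.82 in female and -0.60 ± 0.34 in male GnRHa arrays, a difference of 1.09 ± 0.26 that did not pass (limma's adjusted p = 0.0776). Its dimmer probe gave 1.18 ± 0.27 (adjusted p = 0.0634, limma), and 8 of 10 female arrays lay above the highest male array there. With all 56 arrays as labelled the RTP4 difference was 0.60 (limma's adjusted p = 0.905), and that of the dimmer probe was 0.77.

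IRF1 had a difference of 1.10 ± 0.47 (limma's adjusted p = 0.549), MX1 one of 0.47 ± 0.26 (0.678) and MX2 one of 0.17 ± 0.40 (0.951). All 6 member probes were positive, with a median of 1.09 where the median of all probes was -0.01. limma called 1 of the 6, and 0.155% of 12928 probes overall. 4 of the 6 had an unadjusted p under 0.05, as did 7.77% of all probes. ISG15 was at rank 20 by p of the 20 probes called, so its call lay at the edge. The fit took 1 within-animal correlation, 0.147, for all probes, whereas the sides correlated at 0.42 for ISG15 and 0.74 for RTP4. Their SEs and p-values here can thus be too small. The call was lost with all 56 arrays as labelled (1.31, adjusted p = 0.506), without the 3 turned arrays (1.64, 0.127) and when only the groups compared were fitted (1.71, 0.0820).

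The call also depended on single arrays. With 1 array left out in turn, the ISG15 difference ran between 1.45 and 1.87 and its adjusted p between 0.0300 and 0.136, and the call was lost in 28 of 41 fits. It was kept without female GnRHa right replicates 3, 5 and 7, female GnRHa left replicate 3, male GnRHa left replicate 5, female control left replicates 4, 5, 6 and 7, male control left replicate 2 and male control right replicates 1, 2 and 5, and it was lost without any of the others. The difference was smallest, at 1.45 (adjusted p = 0.124, limma), without female GnRHa right replicate 4, which held the highest ISG15 value.

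**Figure D2:**
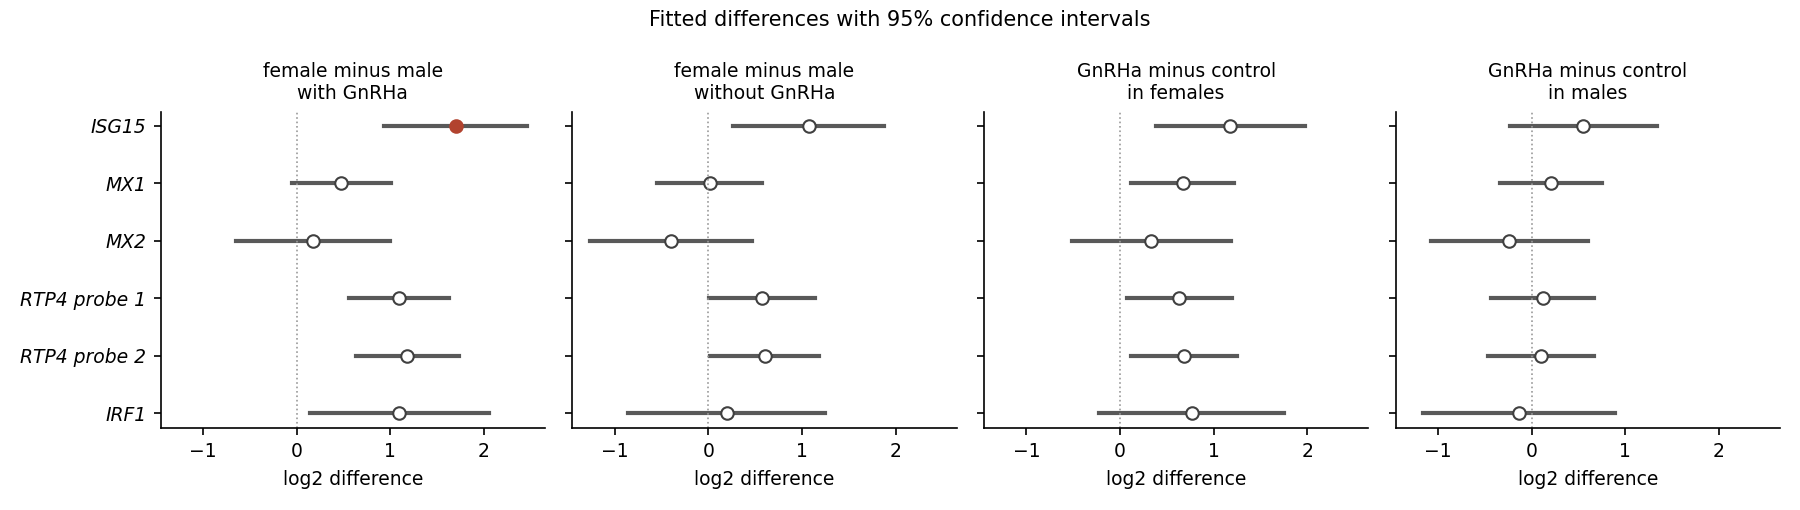
Fitted log2 differences of the 6 member probes with 95% confidence intervals in the comparisons of females with males and of GnRHa with control, each averaged over the sides, where the filled point is past an adjusted p of 0.05. ISG15 with GnRHa is the filled point, at 1.70.

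Without treatment the same 3 probes leaned the same way, with smaller differences. ISG15 averaged -0.20 ± 0.82 in 10 female control arrays and -1.34 ± 0.66 in 9 male control arrays, a difference of 1.07 ± 0.40 (limma's adjusted p = 0.176), which was 0.59 with all 56 arrays as labelled. 10 of 10 female arrays were above the male mean, and 5 of 10 were above the highest male array. RTP4 averaged -0.12 ± 0.79 in female and -0.73 ± 0.39 in male controls, a difference of 0.57 ± 0.28 (limma's adjusted p = 0.326). IRF1 had 0.19 ± 0.52, MX1 0.01 ± 0.28 and MX2 -0.40 ± 0.43, each with an interval that holds 0. limma called 0 of 6 member probes and 1.04% of 12930 probes, and 3 of the 6 had an unadjusted p under 0.05, as did 15.2% of all.

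GnRHa against control in females sets treated animals against untreated ones, and the main fit did not pair litters. Female control right replicates 1 and 2 had no treated twin among the used arrays. All 6 member probes had a positive difference, and limma called 0 of them. ISG15 averaged 0.96 ± 1.16 in treated and -0.20 ± 0.82 in control females (SD, n = 10 arrays each, of 5 and 7 animals). The difference was 1.18 ± 0.39 (SE, limma's adjusted p = 0.833). 5 of 10 treated arrays lay above the highest control array. MX1 had a difference of 0.67 ± 0.27, RTP4 one of 0.64 ± 0.27 and 0.68 ± 0.28 by its 2 probes, IRF1 one of 0.77 ± 0.49 and MX2 one of 0.33 ± 0.42. With all 56 arrays as labelled the differences were 0.38 for MX1 and 0.36 and 0.40 for the RTP4 probes. The MX2 difference was 0.064 with twin pairs as a fixed block and 0.022 without female GnRHa right replicate 4. The median of the 6 was 0.68, against -0.01 over all probes. limma called 0% of 12930 probes, and 498 probes (3.85%) had an unadjusted p under 0.05, among them ISG15, MX1 and both RTP4 probes.

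In males the GnRHa differences lay closer to 0. ISG15 averaged -0.76 ± 0.55 in 12 treated and -1.34 ± 0.66 in 9 control arrays, a difference of 0.55 ± 0.39 (limma's adjusted p = 0.605). RTP4 had 0.12 ± 0.27 and 0.10 ± 0.28 by its 2 probes, MX1 0.21 ± 0.27, MX2 -0.24 ± 0.41 and IRF1 -0.14 ± 0.50. limma called 0 of 6 member probes and 0% of 12928 probes, with 1534 probes (11.9%) and 0 of 6 member probes at an unadjusted p under 0.05. The ISG15 interval, -0.23 to 1.34, still holds the difference found in females.

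Whether the GnRHa difference itself differed between the sexes was tested as an interaction. It was positive for all 6 member probes, at 0.63 ± 0.55 for ISG15, 0.52 ± 0.39 for RTP4, 0.46 ± 0.38 for MX1, 0.57 ± 0.59 for MX2 and 0.90 ± 0.70 for IRF1. limma called 0 of 6 member probes (lowest adjusted p 0.741) and 0% of 12928 probes, while 1017 probes (7.87%) and 0 of the 6 had an unadjusted p under 0.05. A larger response in females than in males was thus not shown for any member.

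Twins allowed the treatment to be read within a family. On the left, where 5 female pairs had both arrays, ISG15 of the treated less the control twin, after removal of the fitted dye term, was 0.37, -0.28, 2.85, 2.55 and -0.60. Their mean was 0.98 ± 1.62 (SD, 3 of 5 positive, exact sign-flip permutation test, two-sided p = 0.375). On the right the 3 female pairs gave 0.85, 2.90 and -0.80. In males the 3 left pairs gave 0.93, 1.46 and 0.16 and the 3 right pairs 1.80, -1.19 and 1.16. Treated twins were thus not always higher, and 1 female pair was lower on both sides. Over 20 such tests (5 genes, 2 sexes, 2 sides) the lowest exact p was 0.0625, for IRF1 in left females (5 of 5 positive, mean 0.71 ± 0.75, adjusted p = 0.833), which is the smallest that 5 pairs allow. With 3 pairs the smallest is 0.25.

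No member passed the test between the right and left amygdala. Averaged over sex and treatment, right minus left was 0.32 ± 0.41 for ISG15, 0.28 ± 0.29 for MX1, 0.23 ± 0.44 for MX2, 0.17 ± 0.29 for RTP4 and -0.52 ± 0.52 for IRF1. limma called 0 of 6 member probes and 0.139% of 12915 probes, with 0 of 6 and 12.5% at an unadjusted p under 0.05. In this fit the side is separated from the dye by the male arrays alone. The fitted dye term (Cy5 less Cy3) was -0.48 for ISG15 and 0.48 for IRF1. Without it the ISG15 difference between the sides was -0.05.

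Within single sides limma called 0 of 6 member probes in each of 10 comparisons. Females against males with GnRHa came closest, on the right. There RTP4 averaged 0.84 ± 0.87 in 5 female and -0.80 ± 0.26 in 6 male arrays, a difference of 1.70 ± 0.36 (limma's adjusted p = 0.0553), and ISG15 differed by 2.00 ± 0.52 (0.118). With all 56 arrays as labelled these differences were 0.81 (limma's adjusted p = 0.997) and 1.33. On the left the same difference was 1.40 ± 0.52 for ISG15 (limma's adjusted p = 0.111) and 0.47 ± 0.36 for RTP4 (0.445). The background was 0.0696% of 12930 probes called on the right and 2.19% of 12928 on the left.

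GnRHa less control in females was 1.38 ± 0.52 on the right and 0.98 ± 0.52 on the left for ISG15, and 1.06 ± 0.37 and 0.21 ± 0.37 for RTP4 (limma's adjusted p 0.626 or more). The ISG15 difference on the right was 0.88 without female GnRHa right replicate 4, and that of RTP4 was 0.60 with all 56 arrays as labelled. The background there was 0% called on either side, with 6.42% of probes at an unadjusted p under 0.05 on the right and 5% on the left, and 4 and 0 of 6 member probes. Whether the treatment difference in females changed with side was tested, and the change was 0.85 ± 0.49 for RTP4 (limma's adjusted p = 0.604) and 0.40 ± 0.69 for ISG15 (0.891). In that test 0.00773% of 12930 probes were called. The other 5 within-side comparisons called 0.0387% (GnRHa in right males), 0.302% (GnRHa in left males), 0.0773% (right controls, female against male), 5.11% (left controls, female against male) and 0.139% (GnRHa by side in males) of all probes, and 0 of 6 member probes in each.

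ISG15, MX1, MX2 and RTP4 were correlated with each other over animals. For each animal the values were taken after removal of the group mean and dye term, and the sides were averaged. Over 25 animals ISG15 and RTP4 had Pearson's r of 0.78 (Spearman's rho 0.75), ISG15 and MX1 0.71 (0.72), MX1 and RTP4 0.69 (0.67), MX1 and MX2 0.68 (0.70), ISG15 and MX2 0.63 (0.61), and MX2 and RTP4 0.51 (0.49). By a two-sided permutation test of 100000 resamples, adjusted over the 10 pairs, p was 0.0001 for ISG15 with RTP4, the smallest that the resamples and the adjustment can give, and 0.0003, 0.0004, 0.0004, 0.0015 and 0.0132 for the others in that order. Without the 2 animals farthest from the median of the first gene the 6 values of r were 0.75, 0.63, 0.67, 0.64, 0.50 and 0.49. All arrays share the pool as their other channel. The genes of a pair were read on the same arrays, and only 16 of the 25 animals had both sides. Variation between arrays thus enters these r beside variation between animals, and its part was not tested. Twins were counted as separate animals.

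IRF1 stood apart, with no relation detected to ISG15 (r = 0.02, rho 0.11, permutation adjusted p = 0.929) or RTP4 (r = -0.02, rho -0.03, 0.929). It had r = 0.51 with MX2 (rho 0.59, permutation adjusted p = 0.0132, 0.52 without the 2 farthest animals) and 0.31 with MX1 (rho 0.31, permutation adjusted p = 0.161). In all, 7 of 10 pairs passed. With group mean and dye kept 5 passed, and ISG15 with MX2 (r = 0.38, permutation adjusted p = 0.087) and MX2 with RTP4 (r = 0.35, 0.107) did not. With all 56 arrays 6 passed, and MX2 with IRF1 (r = 0.35, permutation adjusted p = 0.079) did not. In the 12 female animals ISG15 had r = 0.87 with MX1 and 0.86 with RTP4 (permutation adjusted p = 0.00135 each), and 5 of 10 pairs passed, without MX2 with RTP4 (r = 0.59, 0.071) and MX2 with IRF1 (r = 0.50, 0.140). In the 13 males the same pairs had r = 0.47 and 0.41 (0.258 and 0.262), and 0 of 10 pairs passed, with 2 of 10 at an unadjusted p under 0.05. Whether the sexes differ in this was not tested.

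**Figure D3:**
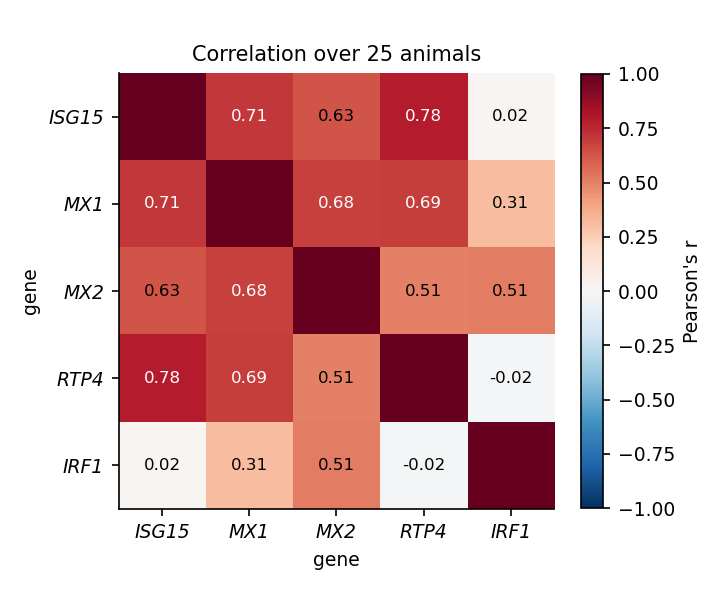
Pearson's r between the 5 genes over 25 animals, of values with the group mean and dye removed and the sides averaged. ISG15, MX1, MX2 and RTP4 have r of 0.51 to 0.78 with each other, and IRF1 exceeds 0.50 with MX2 alone.

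Some animals stood far from their group in several of these genes. Female GnRHa replicate 4 was above its group mean in ISG15 by 0.93, in MX1 by 0.78, in MX2 by 1.60 and in RTP4 by 0.42. It ranked highest of 25 animals in the first 3 of these. The excess lay mainly on its right array. Right and left stood at 1.97 and -0.10 for ISG15 and at 1.33 and 0.24 for MX1. For MX2 they stood at 2.59 and 0.62, and for RTP4 at 0.83 and 0.001. Female GnRHa replicate 3 was below its group by -1.27 in ISG15, -0.59 in MX1, -1.11 in MX2 and -1.11 in RTP4. Female GnRHa replicate 7 stood at -1.05, -0.79, -1.20 and -0.24 for the same genes. For ISG15 and MX2 the treated females thus held both the highest and the lowest of the 25 animals. ISG15, MX1, MX2 and RTP4 were all above the group mean in 8 of 25 animals and all below it in 5.

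**Figure D4:**
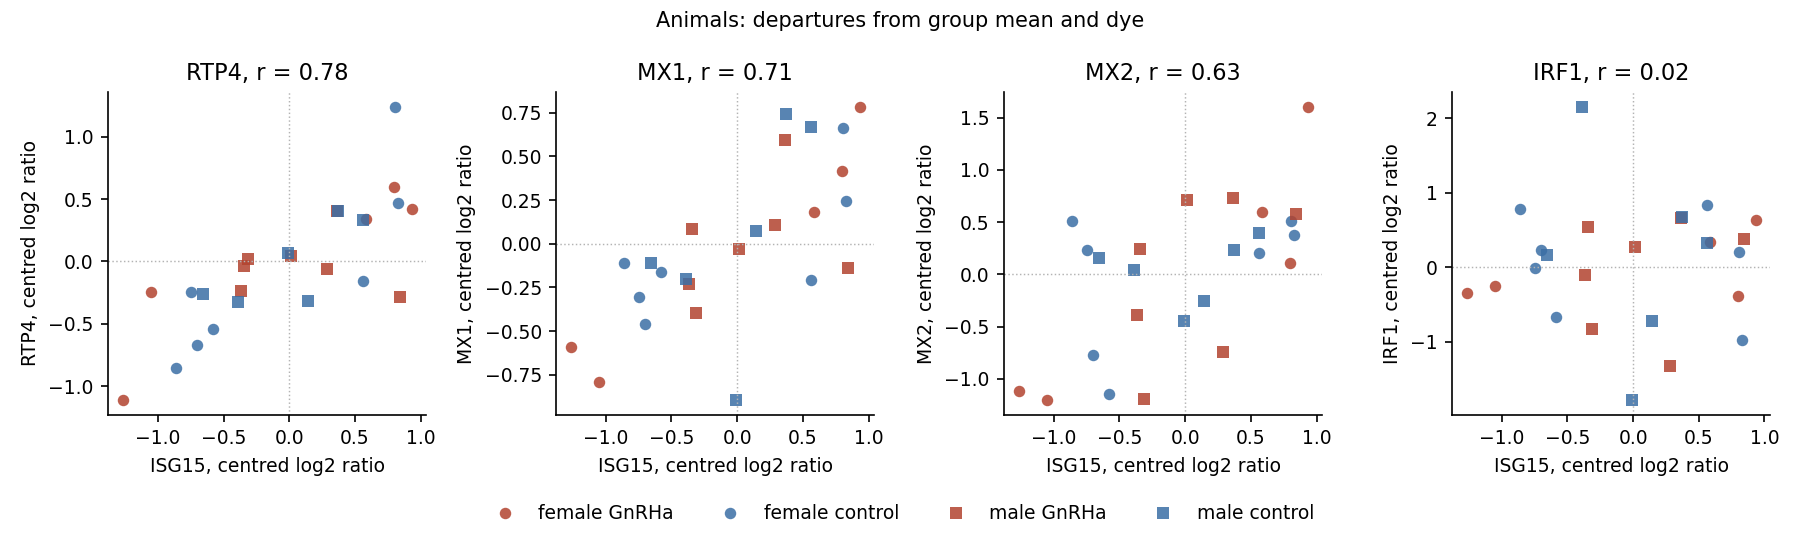
RTP4, MX1, MX2 and IRF1 against ISG15 in 25 animals, each axis a log2 ratio less the group mean and dye term, coloured by treatment and shaped by sex. The points rise together for RTP4, MX1 and MX2 (r of 0.78, 0.71 and 0.63) and are scattered for IRF1 (r = 0.02).

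Right and left amygdala of an animal gave like values for some members. Over 16 animals with both sides, r between right and left was 0.76 for MX1 (rho 0.83, permutation adjusted p = 0.00283), 0.74 for RTP4 (rho 0.68, 0.00283) and 0.55 for MX2 (rho 0.63, 0.0428). For ISG15 it was 0.42 (permutation adjusted p = 0.130), with rho 0.56 (0.0309). For IRF1 it was 0.08 over 15 animals (rho 0.04, permutation adjusted p = 0.771). Without the 2 farthest animals r was 0.73 for MX1, 0.71 for MX2 and 0.39 for ISG15. For RTP4 it fell to 0.48 (permutation p = 0.083), where rho over all 16 animals had a permutation adjusted p of 0.0123. A test on fewer animals is also weaker, so whether the RTP4 relation rests on those 2 animals is not settled. MX1 was on the same side of the group mean in both hemispheres in 14 of 16 animals, RTP4 in 13, ISG15 and MX2 in 12 each, and IRF1 in 7 of 15.

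**Figure D5:**
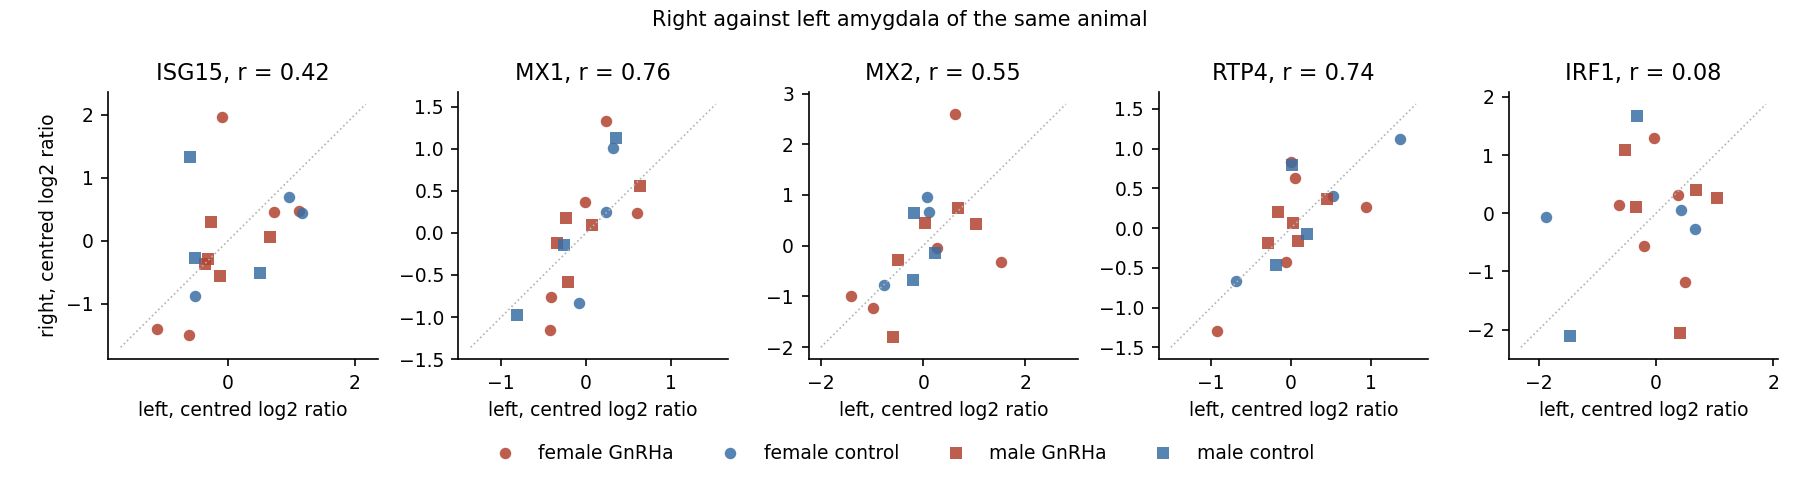
Right against left amygdala of the same animal for the 5 genes, each axis a log2 ratio less the group mean and dye term, with the line of equality dotted. MX1 and RTP4 lie along the line (r of 0.76 and 0.74), and IRF1 does not (r = 0.08).

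Set against 12440 probes ranked by r with ISG15 over animals, the RTP4 probes were at ranks 1 and 3, MX1 at 6, MX2 at 26 and IRF1 at 5551. For MX1 the ranks were 5 for ISG15, 4 and 6 for the RTP4 probes and 7 for MX2. For MX2 they were 5 for MX1, 9 for ISG15, 91 for IRF1 and 96 for RTP4. For RTP4 they were 11 for ISG15, 73 for MX1 and 607 for MX2, after its own second probe at rank 1. For IRF1 the nearest member was MX2, at rank 70, and ISG15 was at 5768.

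The named genes outside the set that were most alike, by r over at least 20 animals and as a description, were KDR, a receptor of vascular endothelial growth factor (0.70), TYR, the melanin enzyme tyrosinase (0.69), and OXT, the oxytocin precursor (0.60), for ISG15. For MX1 they were the cytokine gene TNF (0.66), SPRY-2, an inhibitor of growth factor signalling (0.63), and RACK1, a ribosome-bound scaffold (0.61). For MX2 they were CHI3L1, a secreted chitinase-like protein (0.65), NPC2, a lysosomal cholesterol carrier (0.62), and the adenosine receptor ADORA3 (0.59). For RTP4 they were PSME2, a subunit of a proteasome activator (0.78), SLC17A5, a lysosomal sialic acid carrier (0.73), and OXT (0.71). For IRF1 they were the ribosomal protein gene RPL10 (0.65), the leptin receptor LEPR (0.64) and BBC1 (0.63).

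The rest of the interferon pathway was thinly covered. Of 13 listed ligands and receptors 3 were tested, and of 21 signalling genes 4. Of 18 genes for sensing nucleic acid or lipopolysaccharide 5 were tested, and of 56 other interferon-induced genes 1. With GnRHa, females against males, limma called 0 of these 13 genes in either direction, and 0.155% of 12928 probes. The receptor chains IFNAR1 and IFNAR2 differed by -0.06 ± 0.10 and 0.10 ± 0.11. The transcription factors IRF2 and STAT5A had 0.42 ± 0.34 and -0.67 ± 0.57, and the RNA sensor TLR7 and the lipopolysaccharide sensor TLR4 had -0.94 ± 0.56 and -0.23 ± 0.43. The chemokine gene CXCL10, also induced by interferon, had 2.13 ± 0.53 (limma's adjusted p = 0.0795). In females, GnRHa against control, limma called 0 of the 13 and 0% of 12930 probes, and CXCL10 had 0.77 ± 0.55. With such shares, 0 of 13 does not set these genes apart from other probes.

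Of 22 listed antigen presentation genes, which interferon also raises, only 2 were tested, CTSS and B2M, and both leaned the same way. CTSS, a lysosomal protease that trims antigens and is abundant in microglia, was higher in female than male GnRHa amygdala by 0.98 ± 0.18 (limma's adjusted p = 0.0111). B2M, the light chain of class I molecules, had 0.86 ± 0.22 (0.0913). Of 9 probes described as MHC class I, 8 were positive with a median of 0.94 and 0 were called by limma. Of 4 class II probes 3 were positive with a median of 1.37 and 0 were called. Over all probes the median was -0.01, and 0.155% were called. For GnRHa against control in females B2M had 0.64 ± 0.23 and CTSS 0.47 ± 0.18, neither called by limma, which called 0% of all probes. There 8 of 9 class I probes were positive (median 0.49). Between females and males without GnRHa 8 of 9 class I probes were positive too (median 0.36). For GnRHa against control in males 7 of 9 were negative (median -0.11).

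Of 24 listed markers of microglia and macrophages 9 were tested. Between females and males with GnRHa limma called 1 of the 9, the same CTSS, and 0.155% of all probes. The median of the 9 was 0.43, with 7 above 0, where the median of all probes was -0.01. Between females and males without GnRHa 8 of the 9 were above 0 (median 0.11) and 0 were called, with 1.04% of all probes. In left controls alone 1 was called, and 5.11% of all probes. For GnRHa against control in females 0 of the 9 and 0% of all probes were called, and the median of the 9 was 0.19. The mean of the 9 markers per array ran between 0.05 and 0.92 on the female GnRHa right arrays and between -0.29 and 0.35 on the male GnRHa right arrays, and between -0.18 and 0.42 on female and -0.35 and 0.26 on male GnRHa left arrays. Over 25 animals, ISG15 less its group mean had r = 0.47 with that mean (rho 0.39, permutation p = 0.0165, adjusted over 6 lists 0.0990), and r was 0.30 without the 2 farthest animals. That relation did not pass after adjustment. The other 5 lists (astrocyte, endothelial, blood, choroid plexus and meninges, MHC class I) had r of 0.02 to 0.32 with ISG15.

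Markers of the other cell types gave 0 calls by limma between females and males with GnRHa and for GnRHa against control in females. Of all probes, 0.155% and 0% were called there. Between females and males with GnRHa, 4 of 5 astrocyte markers were above 0, with a median of 0.34. Those of lowest p were the water channel gene AQP4 (0.42 ± 0.12) and the gap junction gene GJA1 (0.34 ± 0.17). Choroid plexus and meninges markers were below 0 in 5 of 5, with a median of -0.56, and endothelial and mural markers were above 0 in 2 of 3 (median 0.22) and blood markers in 4 of 6 (median 0.17). Of these lists the genes of lowest p were DCN, a matrix proteoglycan (-0.56 ± 0.40), and the water channel gene AQP1 (-0.67 ± 0.56), the vascular receptors TEK (0.46 ± 0.40) and KDR (0.22 ± 0.63), and AHSP, a chaperone of alpha globin (-1.19 ± 0.46), and the T cell receptor subunit CD3E (0.40 ± 0.27). For GnRHa against control in females the medians were -0.06 for astrocyte, -0.18 for choroid plexus and meninges, 0.79 for endothelial and mural and 0.22 for blood markers. The part of these cells in the ISG15 and RTP4 differences was not tested, and in bulk tissue more cells of a type and more RNA per cell cannot be told apart.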

How the data were processed

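Agilent Feature Extraction 9.1 produced the scanner signals, per the submitters' processing notes. The deposited value columns hold log2 ratios between sample and pool, and their background correction, normalization and direction are not given in the sources used here. The direction was taken as sample over pool from the labels. For each group the authors also deposited a log2 fold change against the pool, a mean log2 brightness, p-values before and after adjustment, and a score, their moderated t. Of these only the brightness, the fold change and the p-values were used.

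Repeated spots of a probe were averaged (15008 probes, of which 1440 carried exactly 1 gene name, for 835 genes), without further normalization. Names came from accessions, symbols and synonyms in the files matched to RefSeq, so an old or partial annotation leaves genes unnamed. Columns were kept at an absolute spike-in slope of at least 0.5. Turned columns were given the opposite dye to their label. Probes with at least 2 values in each group were tested (12930, of which 9370 were on every used array), so dim probes such as IRF1 carry missing values.

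limma 3.58.1 in R 4.3.3 fitted 8 group means and the dye, with animal as a random block (within-animal correlation 0.147), over the 41 used arrays. That 1 correlation was used for every probe. The sides of an animal correlated at 0.76 for MX1, 0.74 for RTP4, 0.55 for MX2, 0.42 for ISG15 and 0.08 for IRF1. For genes above 0.147, SEs and p-values of comparisons averaged over the sides can thus be too small. Tests were two-sided, adjusted by Benjamini-Hochberg over all probes of a comparison, with a threshold of 0.05. The fit was tried on simulated data with 1 within-animal correlation for all probes, which does not cover genes with a higher one. Labels name the twin pairs, and their correlation as a random block was 0.0685. Where nothing says otherwise, arrays are separate animals or sides of one, and p-values measure the spread between them. Permutation tests and values by animal were computed in Python 3.11.15 with numpy 2.4.6 and pandas 2.3.3.

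The text names all probes of the 5 genes. The brightest stands for its gene. Of each pathway or marker list it names the genes past the threshold in a comparison averaged over sides, otherwise the 2 of lowest p, and B2M and CTSS. For each member it names the 3 named genes most alike by Pearson's r over at least 20 animals. The members and lists were chosen with earlier results of these data known. The probe groups for MHC class I and II, the 6 lists set against ISG15 and some gene aliases were chosen after the files were seen. Alternatives were the columns used, the dye, animal and twin terms, missing values, samples, weights, quantile scaling and leaving out each array.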

Additional observations from a re-analysis of the deposited data

Results flagged for a closer look

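IRF1 on male GnRHa right replicate 2 stood at -2.98, and the nearest of the 6 arrays of its group was at -0.54. That gap is 0.674 of the range of the group, above Dixon's 95% limit, in 1 of 47 sets of arrays (probe and group) examined. Chance alone marks about 1 in 20 such sets. The left array of the same animal had 0.19. Without the array the IRF1 difference of GnRHa less control in males was 0.06, right less left was 0.14, and female less male with GnRHa was 0.84.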

How the results depend on the processing

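The number of member probes called by limma was 0 under each alternative run for GnRHa less control in females, GnRHa less control in males, their interaction, female less male without GnRHa, and right less left. For female less male with GnRHa it was 0 with all 56 columns, without the turned columns and with only the groups compared. It was 2 (ISG15 and the dimmer RTP4 probe) with no dye term, with the twin pair as a random replicate block and with probes on every array, and 3 (ISG15 and both RTP4 probes) with no animal block, quantile scaling or array weights. With 1 array left out it ran between 0 and 3. Within sides the count was 2 with probes on every array or quantile scaling and 5 with array weights, and 0 to 2 with 1 array left out. The share of all probes called in these alternative fits is not given here. The counts are thus not read as particular to the members. The twin pair as a fixed replicate block allows no sex contrast, and neither twin block changed another call. The 7 correlated pairs became 0 in males alone, 5 in females alone or with group mean and dye kept, 6 with all 56 columns, and 6 to 8 with 1 animal left out. With all 56 columns, 0 of 5 genes passed between the sides, the level of MX1 in female control left was 0.062 and that of RTP4 in male GnRHa right -0.18. Of the pathway lists, IFNAR1 (right less left) gave the count of 1 with no dye term. These values changed sign, all short of the threshold: with all 56 columns, IRF1 for GnRHa in males (0.16), the RTP4 interaction (-0.19), IRF1 right less left (0.070) and r of RTP4 with IRF1 (0.22); MX1 for female less male without GnRHa, -0.010 without the turned columns, -0.15 with weights and -0.064 with only the groups compared; right less left with no dye term, -0.053 for ISG15 and -0.066 for the dimmer RTP4 probe; r of RTP4 with IRF1, 0.29 with group mean and dye kept and 0.016 with the mean of probes; r of ISG15 with IRF1, -0.061 in males and -0.040 without the turned columns. With 1 array left out, the values that changed sign ran from -0.61 to 0.28 (IRF1, GnRHa in males), -0.14 to 0.33 (MX2, female less male with GnRHa), -0.28 to 0.61 (IRF1) and -0.13 to 0.19 (MX1, both female less male without GnRHa), -0.94 to 0.14 (IRF1) and -0.025 to 0.14 (the dimmer RTP4 probe, both right less left), and -0.012 to 0.51 (RTP4, GnRHa in left females). With 1 animal left out, r ran from -0.027 to 0.10 (ISG15 with IRF1) and -0.069 to 0.055 (RTP4 with IRF1). The cause of these shifts was not tested. Fits without 1 array kept the correlation of the full fit, and fits of females alone had no dye term. Depth could not be judged, since signals over background were not used here.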

Other observations

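The members are also in the authors' deposited tables of each group against the pool. There the lowest adjusted p of a member was 0.0866, for RTP4 in female GnRHa right amygdala (log2 fold change 0.57), where ISG15 had 0.79 (adjusted p = 0.157) and MX1 0.54 (0.123) in the authors' deposited table. In the authors' deposited table of male control right amygdala ISG15 had -0.35 and RTP4 -0.33. The authors' log2 fold changes correlated across probes with the mean of all deposited columns of a group at r = 0.40 to 0.62. With the mean of the used columns r was lower in each group, at 0.28 to 0.52. These are relations over probes, which are not replicates, and the columns alone do not give those tables. In the 15 arrays left out, the member probes had a value on 8 to 12.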
